A study of Mus musculus with 12 samples.

Results

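The integrated stress response and the unfolded protein response were followed through 48 genes, 26 of the ATF4 arm and 22 of the XBP1 and ATF6 arms. The genes were chosen by symbol as textbook members of these arms, with earlier results of these data known. All 48 were found among the 25867 genes with a symbol in the deposited count table. The RNA came from mouse thymic epithelial cells (TECs), which form the stroma of the thymus and display antigens to T cell precursors, and which were sorted from C57BL/6 fetal lobes held in organ culture. In the Kat7 knockout, RosaCre-ERT2 Kat7fl/fl lobes received tamoxifen, which activates a Cre recombinase carried at the ubiquitously expressed Rosa locus, so that every cell type of the lobe could lose Kat7. Its control cultures also received tamoxifen, and the labels give their genotype only as control, while their count columns are headed wt. In wild-type lobes the histone acetyltransferase KAT7 was blocked with the inhibitor WM-3835, and wild-type lobes with the solvent DMSO were set against them. The sample titles spell the compound WM-3825, and neither its dose nor its duration is given. All lobes were of stage E15.5, had 4 to 5 days in 1.35 mM 2'-deoxyguanosine to remove thymocytes, and then 3 days in a RANK-activating antibody at 10 µg/mL. Each group had 3 libraries, which the series design calls biological replicates.

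The integrated stress response starts with kinases that phosphorylate the translation factor eIF2α when a cell lacks amino acids or accumulates unfolded protein. Bulk translation then slows while the mRNA of the transcription factor ATF4 is translated more, and ATF4 with its C/EBP partners switches on genes of amino acid synthesis, redox balance and cell death. The unfolded protein response adds the endoplasmic reticulum (ER) sensors IRE1, which splices Xbp1 mRNA into an active form, and ATF6, which is cut to release a transcription factor, and both raise chaperones and the machinery that degrades misfolded ER proteins. Medullary TECs transcribe a broad set of genes of other tissues, many of which encode secreted proteins. Gene counts show mRNA levels, and neither the splicing of Xbp1, the translation of Atf4 nor the cutting of ATF6 was measured.

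The promoters of 5 called members that hold a searched motif, and of Hspa5, are shown to give the sequence elements through which these arms are known to act. They do not stand for all members that moved: Sesn2, Cebpb and Sdf2l1, which changed as well, hold none of these motifs in their windows. RefSeq promoter windows (GRCm38.p6, 250 bases before to 50 after a gene's start) were available for 44 of the 48 members, and the upstream 250 bases of 6 are printed 5′ to 3′ on the gene's strand with the fixed letters of each matched motif in capitals. Hspa5 (chr2:34771840-34772089, plus strand) is the textbook target, Hsp90b1 (chr10:86705445-86705694, minus strand) and Creld2 (chr15:88819396-88819645, plus strand) fell with WM-3835, and Derl3 (chr10:75893148-75893397, plus strand) rose in the knockout. In the ATF4 arm, Fgf21 (chr7:45615491-45615740, minus strand) fell with WM-3835 and Atf3 (chr1:191183334-191183583, minus strand) fell in the knockout.
Hspa5: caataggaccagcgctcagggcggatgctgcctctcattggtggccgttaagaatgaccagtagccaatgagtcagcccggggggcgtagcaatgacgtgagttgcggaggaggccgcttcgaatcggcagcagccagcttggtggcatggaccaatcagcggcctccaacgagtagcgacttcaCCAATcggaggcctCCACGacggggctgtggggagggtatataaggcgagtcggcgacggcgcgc
Hsp90b1: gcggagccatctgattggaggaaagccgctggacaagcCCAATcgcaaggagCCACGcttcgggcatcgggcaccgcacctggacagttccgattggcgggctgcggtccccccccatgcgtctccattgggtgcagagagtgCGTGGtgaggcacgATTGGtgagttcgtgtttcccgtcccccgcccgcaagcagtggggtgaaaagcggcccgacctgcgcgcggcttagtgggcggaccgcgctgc
Creld2: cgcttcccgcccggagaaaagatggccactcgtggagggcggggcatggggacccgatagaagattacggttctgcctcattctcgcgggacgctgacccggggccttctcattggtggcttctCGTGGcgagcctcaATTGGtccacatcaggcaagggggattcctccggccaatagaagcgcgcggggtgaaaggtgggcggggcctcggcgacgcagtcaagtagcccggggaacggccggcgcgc
Derl3: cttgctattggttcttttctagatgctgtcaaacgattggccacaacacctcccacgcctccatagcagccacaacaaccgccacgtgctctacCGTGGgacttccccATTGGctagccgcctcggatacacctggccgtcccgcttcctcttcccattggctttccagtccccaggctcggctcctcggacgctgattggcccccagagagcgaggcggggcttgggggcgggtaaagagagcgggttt
Fgf21: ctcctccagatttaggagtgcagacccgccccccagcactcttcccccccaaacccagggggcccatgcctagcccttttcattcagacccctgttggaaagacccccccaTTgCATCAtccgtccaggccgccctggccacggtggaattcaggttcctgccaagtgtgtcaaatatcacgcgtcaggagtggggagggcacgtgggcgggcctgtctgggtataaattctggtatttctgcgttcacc
Atf3: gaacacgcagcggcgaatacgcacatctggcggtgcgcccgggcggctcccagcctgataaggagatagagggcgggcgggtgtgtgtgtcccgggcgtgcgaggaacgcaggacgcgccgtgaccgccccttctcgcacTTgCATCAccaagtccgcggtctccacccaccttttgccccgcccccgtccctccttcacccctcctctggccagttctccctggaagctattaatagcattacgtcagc

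The capitals in the first 4 sequences are the ER stress element, read here as CCAAT, then 9 bases of any kind, then CCACG, on either strand. Hsp90b1 carried 2 such matches, at -212 to -194 and at -107 to -89 from the gene's first base, and Hspa5 1 match at -65 to -47. The Creld2 and Derl3 matches lay on the opposite strand, so that CGTGG is read first. In Fgf21 and Atf3 the capitals are the amino acid or C/EBP-ATF response element TGATGNAA, read on the opposite strand, at -139 to -132 in Fgf21 and at -110 to -103 in Atf3. Over the whole windows, 9 of the 19 matched members of the XBP1 and ATF6 arms held the ER stress element, none of 25 ATF4-arm members did, and 0.137% of 27025 genes did. TGATGNAA stood in 8 of 25 ATF4-arm members, in 1 of 19 XBP1 and ATF6 members, and in 4.51% of all genes. The second ER stress element (ATTGG, 1 base of any kind, CCACG) was found in Dnajb11 and Herpud1 and in 0.0444% of genes. TGACGTGG, the unfolded protein response element, whose last letters overlap the CCACG end of the ER stress element on the other strand, matched no member and 0.714% of genes. A match is a run of letters and was not tested for binding.

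**Figure D1:**
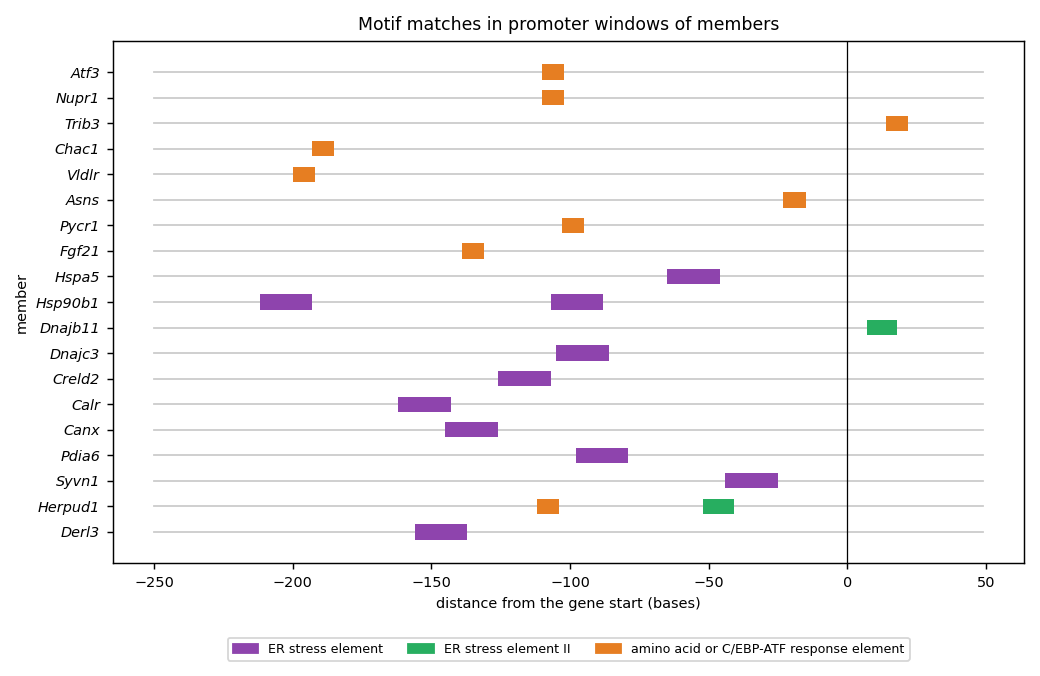
Motif matches in the promoter windows of the 19 members that hold at least 1, by distance in bases from the gene's first base (0, vertical line); each grey line is a window and each box a match. ER stress elements lie in 9 members of the XBP1 and ATF6 arms and in none of the ATF4 arm, with starts between -212 (Hsp90b1) and -44 (Syvn1).

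The 12 libraries held 26656847 to 52368012 counts, and all 48 members passed the filter on low counts. Levels are given in CPM, a gene's counts scaled to library size by TMM, and between genes in RPKM, which is CPM per kilobase of gene length. Kat7 checked the knockout labels: it stood at 0.606, 0.810 and 0.869 CPM in the knockout libraries, against 89.0, 76.5 and 76.0 CPM in the control libraries, a log2 change of -6.74 (SE 0.13, adjusted p = 1.31e-16). Xist, transcribed from the inactive X chromosome of female cells, stood at 1709, 1191 and 4.94 CPM in the knockout libraries, against 3.05, 2.34 and 3.17 CPM in the control libraries, and at 1918, 846 and 2118 CPM with WM-3835, against 1852, 1382 and 1898 CPM with DMSO, so it was high in knockout 1 and knockout 2 and low in knockout 3 and the controls. Fits with Xist as a covariate stand beside the results. They take the effect of Xist mainly from knockout 3 against knockout 1 and knockout 2, since Xist varied less within the other groups. All 9 TEC markers exceeded 1 CPM in every library, with a summed level of 14358 to 14743 CPM in the knockout, 15052 to 17051 CPM in control, 13093 to 14519 CPM with WM-3835 and 14372 to 16294 CPM with DMSO. Single TEC markers moved within these sums. With WM-3835 Aire fell (556 against 1199 CPM, log2 change -1.11), as did Foxn1, Krt5 and H2-Aa, while Epcam rose (0.51). In the knockout Krt14 (-1.34), Aire (-0.24), H2-Aa (-0.24) and Cd74 (-0.23) fell, and the others did not pass. The 7 fibroblast markers summed to 60.2 to 81.1 CPM in the knockout and 123 to 185 CPM in control, and to 48.6 to 61.4 CPM with WM-3835 and 55.7 to 70.7 CPM with DMSO. With WM-3835 Pdgfra rose (18.5 against 1.06 CPM, log2 change 4.11), while Dcn (-1.10), Pdgfrb (-1.09) and Thy1 (-3.79) fell and the others did not pass. In the knockout Col1a1, Dcn, Lum and Thy1 fell and the others did not pass. The part of these markers in the results was not tested. Markers of plasma and B cells, whose secretory program uses the same chaperones, summed to 3.80 to 5.30 CPM in the knockout, 6.62 to 8.57 CPM in control, 2.35 to 3.40 CPM with WM-3835 and 3.35 to 4.89 CPM with DMSO. Markers of thymocytes, endothelium, macrophages and dendritic cells, and red cells summed to at most 98.1 CPM in any library, the highest being macrophage and dendritic markers in control. In bulk RNA, fewer cells of one type and less RNA per cell cannot be told apart. The biological coefficient of variation was 0.295 in knockout and 0.465 in control libraries, and 0.126 with WM-3835 and 0.101 with DMSO, so the knockout comparison was the less precise. The main test shares 1 estimate of the spread over all 4 groups, so its SEs and p-values do not carry this difference. Its knockout p-values can therefore be too small and its WM-3835 p-values too large. With quality weights per group, the 5 and 4 knockout rises (ATF4 arm first) were 2 and 0. The 4 and 10 falls with WM-3835 were 12 and 17. Over all genes, knockout rises went from 6.12% to 2.09% and WM-3835 falls from 9.35% to 17.4%.

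In every group the highest member of the XBP1 and ATF6 arms was Hspa5, which encodes BiP, the main ER chaperone, at 549 RPKM in the knockout, 467 in control, 676 with WM-3835 and 939 with DMSO. Hsp90b1, Calr and Pdia3 followed in that order in every group. The sensors were low: Ern1, the gene of IRE1, stood between 8.65 RPKM in control and 12.5 RPKM with WM-3835. In the ATF4 arm Atf5 was the highest in 3 groups, at 203 RPKM in control, 389 with WM-3835 and 506 with DMSO, while in the knockout Nupr1 (226 RPKM) stood beside it (222 RPKM). The lowest ATF4-arm member was Pycr1 in every group, at 1.67 to 5.30 RPKM, and the kinase genes Eif2ak3 and Eif2ak4 lay just above it.

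In the knockout, a minority of the ATF4 arm moved, mostly upward and by less than 2-fold. Of its 26 members 5 rose (Sesn2, Psat1, Eif2ak3, Ddit3 and Phgdh), 1 fell (Atf3) and 20 did not pass, where 6.12% of all 18670 genes rose and 8.06% fell. The test is edgeR's quasi-likelihood test on all 12 libraries with Benjamini-Hochberg adjustment over all genes and a threshold of 0.05. The median log2 change of the arm was 0.17, against -0.01 over all genes tested. By library, 5 members were higher and 2 lower in all 3 knockout libraries than in all 3 controls, where 12.2% and 13.5% of genes were. The 5 rises were 8 without control 1, 3 without control 3, and 2 without knockout 1 or knockout 3.

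Sesn2, which encodes sestrin 2, a leucine sensor that restrains mTORC1, changed most clearly. It stood at 144, 127 and 152 CPM in the knockout libraries, against 84.8, 105 and 86.0 CPM in the control libraries. The 3 knockout libraries were all above the 3 controls, and the log2 change of 0.62 (SE 0.09, adjusted p = 0.000236) was the one member call of this comparison that passed in every other fit and without each library. Eif2ak3, the gene of the ER-resident eIF2α kinase PERK, stood at 39.0, 43.4 and 51.1 CPM in the knockout libraries, against 34.3, 29.0 and 33.3 CPM in the control libraries, without overlap, a log2 change of 0.47 (SE 0.12, adjusted p = 0.0163); without knockout 3, its highest library, the change did not pass (0.36, adjusted p = 0.0797). Exons of Eif2ak3 overlap a gene on the other strand by 485 bases, and the library kit does not mark strand. Eif2ak4, the gene of the amino acid sensor GCN2, stood at 39.5, 31.9 and 42.8 CPM in the knockout libraries, against 43.7, 39.1 and 38.5 CPM in the control libraries, overlapping, with a log2 change of -0.09 (SE 0.12, adjusted p = 0.678).

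The transcription factors of the arm did not move together. Atf4 itself stood at 364, 358 and 357 CPM in the knockout libraries, against 325, 337 and 281 CPM in the control libraries, all 3 knockout libraries above all 3 controls, but the log2 change of 0.20 (SE 0.07, adjusted p = 0.0837) did not pass; it passed without control 2 (0.26, adjusted p = 0.0316) and with DESeq2 (0.19, adjusted p = 0.0443). Ddit3, which encodes CHOP, a factor linked to cell death under ER stress, stood at 186, 141 and 169 CPM in the knockout libraries, against 129, 142 and 93.3 CPM in the control libraries, so knockout 2 lay just under control 2. Its log2 change of 0.44 (SE 0.14, adjusted p = 0.0412) did not pass without control 3 (0.30, adjusted p = 0.131), knockout 1 (0.36, adjusted p = 0.156) or knockout 3 (0.44, adjusted p = 0.0974). Atf3, a factor induced by many stresses and also an immediate early gene, was the one member to fall. It stood at 243, 193 and 281 CPM in the knockout libraries, against 342, 369 and 364 CPM in the control libraries, without overlap, a log2 change of -0.59 (SE 0.13, adjusted p = 0.00563). Cebpb, Cebpg, Atf5 and Nupr1 had log2 changes of 0.13, 0.17, 0.13 and 0.44, which did not pass.

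Among the enzymes, the first 2 steps of serine synthesis rose. Psat1, which makes phosphoserine, stood at 343, 308 and 287 CPM in the knockout libraries, against 266, 255 and 188 CPM in the control libraries, without overlap, a log2 change of 0.41 (SE 0.10, adjusted p = 0.0143). Phgdh, the entry enzyme of the same route, stood at 73.4, 65.6 and 71.9 CPM in the knockout libraries, against 57.9, 63.9 and 41.3 CPM in the control libraries, with control 3 far under the others, a log2 change of 0.37 (SE 0.12, adjusted p = 0.0434). Psph, the last step, and the mitochondrial one-carbon enzymes Shmt2 and Mthfd2 did not pass, at 0.12, -0.20 and 0.26, nor did the asparagine synthetase gene Asns at 0.18 or the proline synthesis genes Aldh18a1 at -0.08 and Pycr1 at 0.70. Psat1 did not pass without knockout 1 (0.34, adjusted p = 0.0677). Phgdh did not pass without control 3 (0.22, adjusted p = 0.105), knockout 1 (0.35, adjusted p = 0.115), knockout 2 (0.43, adjusted p = 0.0557), knockout 3 (0.37, adjusted p = 0.097) or DMSO 3 (0.38, adjusted p = 0.052), and its reads can be shared with a processed pseudogene.

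The remaining effectors and secreted factors did not pass in the knockout. Trib3, a pseudokinase that feeds back on ATF4, changed by 0.24 on the log2 scale, and Chac1, which breaks down glutathione, by -0.38, with all 3 knockout libraries under the controls. Ppp1r15a, whose product GADD34 reverses eIF2α phosphorylation, stood at 0.07. The secreted hormone genes Fgf21 and Gdf15 were at -0.09 and -0.01.

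With WM-3835 the share of ATF4-arm members called, 26.9%, lay not far above the 18.7% of all genes. Of 26 members 3 rose (Cebpb, Psat1 and Nupr1), 4 fell (Fgf21, Atf4, Stc2 and Atf5) and 19 did not pass, where 9.34% of all genes rose and 9.35% fell. The median log2 change was -0.14, against -0.01 over all genes. All 3 WM-3835 libraries lay above all 3 DMSO libraries for 5 members and below them for 11, where 23.1% and 23% of all genes did. The 3 rises were 1 without WM-3835 1 or WM-3835 3, and the 4 falls were 8 without control 3 and 1 without DMSO 1, DMSO 3, WM-3835 1 or WM-3835 2.

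Cebpb, a C/EBP factor that pairs with ATF4, had the largest rise. It stood at 345, 309.5 and 312 CPM with WM-3835, against 222, 196 and 163 CPM with DMSO, a wide gap with no overlap, and a log2 change of 0.73 (SE 0.11, adjusted p = 0.00014). Its exons overlap Tmem189 on the other strand by 312 bases. Nupr1, a stress-induced nuclear protein, stood at 254, 176 and 277 CPM with WM-3835, against 175, 137 and 171 CPM with DMSO; WM-3835 2 lay just above DMSO 1, and the log2 change was 0.55 (SE 0.15, adjusted p = 0.0157). Nupr1 did not pass without DMSO 2 (0.44, adjusted p = 0.0963), WM-3835 1 (0.49, adjusted p = 0.0714) or WM-3835 3 (0.41, adjusted p = 0.105). Psat1 was the one member called in the same direction in both comparisons. These share no library, but both calls came from 1 fit with a shared estimate of the spread, so they are not independent. Psat1 stood at 443, 416 and 452 CPM with WM-3835, against 346, 350.2 and 312 CPM with DMSO, without overlap, a log2 change of 0.38 (SE 0.10, adjusted p = 0.0146). It did not pass without DMSO 3 (0.32, adjusted p = 0.0851), WM-3835 1 (0.37, adjusted p = 0.051) or WM-3835 3 (0.35, adjusted p = 0.0586).

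The secreted hormone gene Fgf21, a known ATF4 target of liver, had the clearest fall of the arm. It stood at 249.8, 249.7 and 286 CPM with WM-3835, against 403, 454 and 452 CPM with DMSO, far apart, and the log2 change of -0.74 (SE 0.10, adjusted p = 4.06e-05) passed in every other fit. Stc2, which encodes the secreted glycoprotein stanniocalcin 2, stood at 225, 214 and 228 CPM with WM-3835, against 277, 266 and 303 CPM with DMSO, without overlap, a log2 change of -0.34 (SE 0.11, adjusted p = 0.0336). Gdf15, a stress cytokine, lay higher in all 3 WM-3835 libraries, but its log2 change of 0.41 (SE 0.16, adjusted p = 0.0864) did not pass. Atf4 stood at 384, 391 and 425 CPM with WM-3835, against 482, 454 and 474 CPM with DMSO, again without overlap, a log2 change of -0.23 (SE 0.07, adjusted p = 0.0315). Atf5, a factor under the same translational control as ATF4, changed by -0.38 (SE 0.12, adjusted p = 0.0361) on the log2 scale. The calls of these smaller falls were lost in several fits with 1 library left out, with changes of similar size. Such fits also have fewer replicates to test with. Atf4 did not pass without DMSO 1 (-0.22, adjusted p = 0.114), DMSO 3 (-0.23, adjusted p = 0.0867), WM-3835 1 (-0.20, adjusted p = 0.137) or WM-3835 2 (-0.22, adjusted p = 0.103). Stc2 did not pass without DMSO 1 (-0.36, adjusted p = 0.0668), DMSO 3 (-0.30, adjusted p = 0.136), WM-3835 1 (-0.35, adjusted p = 0.0853), WM-3835 2 (-0.32, adjusted p = 0.107) or WM-3835 3 (-0.37, adjusted p = 0.0681). Atf5 did not pass with DESeq2 (-0.40, adjusted p = 0.0516) or without DMSO 1 (-0.35, adjusted p = 0.11), DMSO 2 (-0.40, adjusted p = 0.0728), DMSO 3 (-0.40, adjusted p = 0.0661), WM-3835 1 (-0.39, adjusted p = 0.0818) or WM-3835 2 (-0.31, adjusted p = 0.141).

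The other factors and kinases did not pass with WM-3835. Ddit3 stood at 272, 230.0 and 312 CPM with WM-3835, against 308, 261 and 324 CPM with DMSO, overlapping, with a log2 change of -0.13 (SE 0.14, adjusted p = 0.592). Atf3 stood at 456, 338 and 313 CPM with WM-3835, against 404, 335 and 352 CPM with DMSO, overlapping as well, with WM-3835 1 high, and a log2 change of 0.02 (SE 0.13, adjusted p = 0.949) whose sign turned in 5 other fits. Eif2ak3 stood at 51.0, 41.9 and 52.1 CPM with WM-3835, against 42.9, 39.2 and 46.4 CPM with DMSO, a log2 change of 0.17 (SE 0.12, adjusted p = 0.384). Eif2ak4 lay higher in all 3 inhibitor libraries, at 51.6, 52.7 and 49.2 CPM with WM-3835, against 42.5, 36.8 and 45.4 CPM with DMSO; its log2 change of 0.30 (SE 0.12, adjusted p = 0.0832) passed on the 6 wild-type libraries alone (0.29, adjusted p = 0.015) and with quality weights (0.29, adjusted p = 0.00694). Of the enzymes other than Psat1, Asns (-0.40), Psph (-0.49), Mthfd2 (-0.37), Aldh18a1 (-0.36) and Pycr1 (-1.36) lay under DMSO in all 3 libraries without passing, and Phgdh (-0.00) and Shmt2 (0.16) overlapped.

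**Figure D2:**
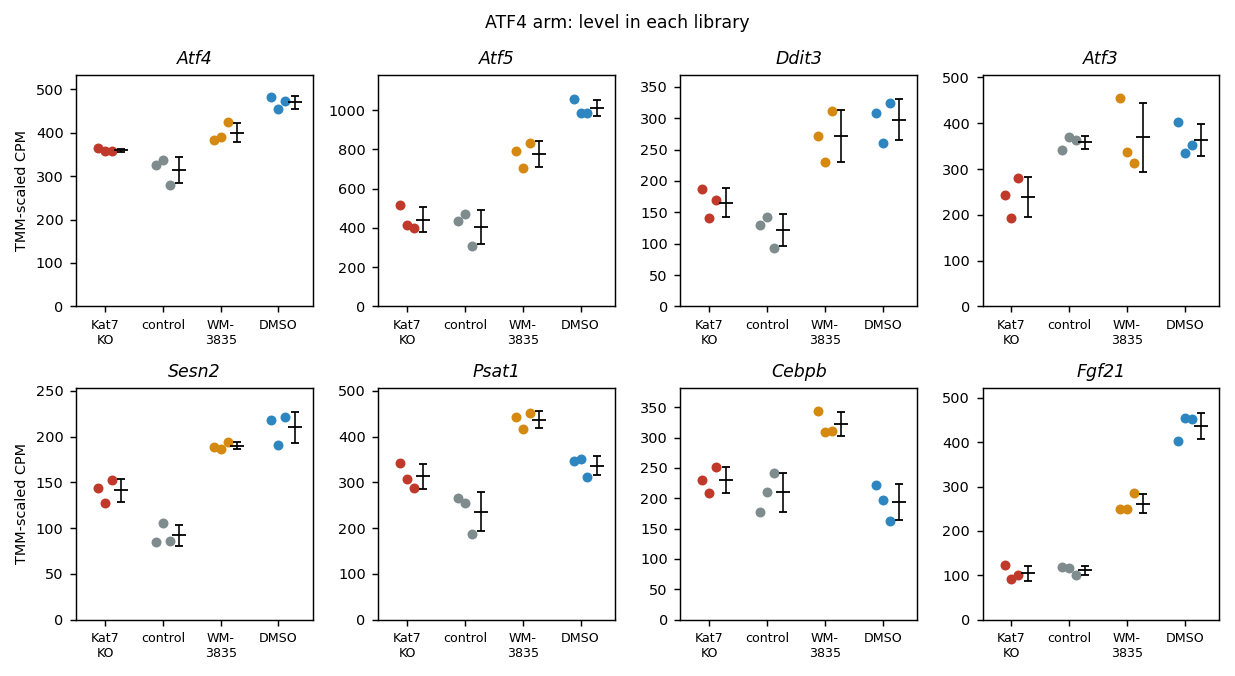
Levels of 8 members of the ATF4 arm in each library, in TMM-scaled CPM; points are libraries and bars the mean ± SD of the 3 libraries of a group. Sesn2 and Psat1 are higher and Atf3 lower in the 3 knockout libraries than in the 3 controls, Cebpb and Psat1 are higher and Fgf21, Atf4 and Atf5 lower with WM-3835 than with DMSO, and 6 of the 8 are higher with DMSO than in control, with Cebpb and Atf3 the exceptions.

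The difference between the knockout and the inhibitor effect was tested directly for each member, as the log2 change in the knockout minus that with WM-3835. In the ATF4 arm 6 of 26 differed, where 10.1% of all genes differed, 4.41% upward and 5.69% downward. Higher in the knockout effect were Sesn2 (0.76, SE 0.13, adjusted p = 0.000749), Fgf21 (0.65, SE 0.14, adjusted p = 0.00599), Stc2 (0.58, SE 0.15, adjusted p = 0.0213) and Atf4 (0.43, SE 0.10, adjusted p = 0.0111). Lower in it were Atf3 (-0.61, SE 0.18, adjusted p = 0.0403) and Cebpb (-0.60, SE 0.16, adjusted p = 0.0204). For Ddit3 the difference of 0.58 (SE 0.20, adjusted p = 0.0707) did not pass. Psat1 differed by 0.03 (SE 0.15, adjusted p = 0.95), and its effects were 0.41 in the knockout and 0.38 with WM-3835. With Xist as a covariate 1 member differed, and the median difference of the arm was 0.25, against 0.30 without it. The 6 differences were 11 without control 1, 10 without control 2, and 3 without knockout 1 or DMSO 3.

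In the knockout few members of the XBP1 and ATF6 arms passed the test, and most of those rose. Of 22 members 4 rose (Derl3, Dnajb9, Pdia3 and Dnajc3), 1 fell (Xbp1) and 17 did not pass, where 6.12% of all genes rose and 8.06% fell. The log2 change was positive for 21, where it was for 9078 of 18670 genes, with a median of 0.24 against -0.01 over all genes. Without overlap, 5 were higher and 1 lower in the knockout libraries, where 12.2% and 13.5% of all genes were. The 9 chaperones and co-chaperones had log2 changes of 0.14 to 0.52, of which 2 passed, and the 5 genes of ER-associated degradation had changes of 0.06 to 1.49, of which 1 passed.

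Xbp1, the transcription factor of the IRE1 branch and a driver of secretory capacity, was the one member to fall. It stood at 307, 289 and 289.5 CPM in the knockout libraries, against 425, 353 and 374 CPM in the control libraries, without overlap, a log2 change of -0.38 (SE 0.09, adjusted p = 0.0085). Ern1, whose product splices Xbp1 mRNA, stood at 46.0, 35.3 and 39.9 CPM in the knockout libraries, against 36.4, 38.0 and 28.8 CPM in the control libraries, overlapping, with a log2 change of 0.23 (SE 0.13, adjusted p = 0.242). Atf6 stood at 99.2, 99.5 and 85.4 CPM in the knockout libraries, against 106, 71.3 and 83.5 CPM in the control libraries, overlapping, with a log2 change of 0.12 (SE 0.13, adjusted p = 0.593). None of the 3 sensor and factor genes rose in the knockout.

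Derl3, which encodes a derlin of the channel that draws misfolded proteins out of the ER, had the largest change of the 48 members in this comparison. It stood at 19.0, 12.3 and 12.8 CPM in the knockout libraries, against 7.12, 5.35 and 3.17 CPM in the control libraries, without overlap, a log2 change of 1.49 (SE 0.30, adjusted p = 0.00276) or 2.81-fold. Dnajb9, a co-chaperone of BiP that also restrains IRE1, stood at 84.2, 87.9 and 101 CPM in the knockout libraries, against 70.8, 61.4 and 57.5 CPM in the control libraries, without overlap, a log2 change of 0.52 (SE 0.12, adjusted p = 0.0054). Dnajc3, the co-chaperone p58IPK, stood at 213, 181 and 203 CPM in the knockout libraries, against 169, 157 and 144 CPM in the control libraries, again without overlap, a log2 change of 0.34 (SE 0.11, adjusted p = 0.0404). Pdia3, a disulfide isomerase that works with the lectin chaperones and in loading MHC class I, stood at 747, 681 and 725 CPM in the knockout libraries, against 653, 542 and 512 CPM in the control libraries, without overlap, a log2 change of 0.34 (SE 0.10, adjusted p = 0.0266). The chaperone genes most used as reporters of the response did not pass: Hspa5 stood at 1504, 1271 and 1533 CPM in the knockout libraries, against 1444, 1285 and 938 CPM in the control libraries, overlapping, since control 1 and control 2 lay above knockout 2, with a log2 change of 0.23 (SE 0.14, adjusted p = 0.299). The calls of Dnajc3 and Pdia3 were lost when any of several libraries was left out, with changes of similar size. Dnajc3 did not pass without control 2 (0.36, adjusted p = 0.062), control 3 (0.30, adjusted p = 0.0975), knockout 1 (0.30, adjusted p = 0.129) or knockout 3 (0.34, adjusted p = 0.095). Pdia3 did not pass without control 2 (0.31, adjusted p = 0.0639), control 3 (0.28, adjusted p = 0.0786), knockout 1 (0.32, adjusted p = 0.0824) or knockout 3 (0.34, adjusted p = 0.0645). Without control 1, the library with the highest level of 17 of the 22 members in its group, 9 members rose in place of 4, and without control 2, control 3, knockout 1 or knockout 3, 2 rose.

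Xist moved with the knockout comparison, and with it as a covariate fewer members and fewer genes at large were called. That fit and the one with knockout 3 as the only knockout library both lean on knockout 3, so they are not separate checks. With Xist as a covariate, Sesn2 alone of the 11 member calls passed, where 0.889% of all genes rose and 1.68% fell; the 26 members of the ATF4 arm then held 1 call and the 22 others none. The 10 changes that no longer passed kept their sign. They were larger than without the covariate for Eif2ak3 (0.65, adjusted p = 0.055), Dnajb9 (0.65, adjusted p = 0.0516), Xbp1 (-0.45, adjusted p = 0.106) and Phgdh (0.41, adjusted p = 0.262), and smaller for Ddit3 (0.43, adjusted p = 0.322), Dnajc3 (0.33, adjusted p = 0.327), Pdia3 (0.31, adjusted p = 0.302), Derl3 (1.15, adjusted p = 0.168), Atf3 (-0.36, adjusted p = 0.357) and Psat1 (0.26, adjusted p = 0.411). The median log2 change with the covariate was 0.11 for the ATF4 arm and 0.25 for the other arms, against 0.17 and 0.24 without it. With knockout 3, the knockout library with low Xist, as the only one of its group, the fit takes the spread of that lone library from the other groups, and 1.22% of all genes rose and 2.25% fell. Sesn2, Eif2ak3 and Dnajb9 passed there, and the medians were 0.16 and 0.32; Derl3 was at 1.30, adjusted p = 0.0993, Atf3 at -0.34, adjusted p = 0.298 and Xbp1 at -0.40, adjusted p = 0.146. With quality weights per group, Derl3 (1.54, adjusted p = 0.0963), Xbp1 (-0.38, adjusted p = 0.0553), Dnajb9 (0.52, adjusted p = 0.0502), Dnajc3 (0.35, adjusted p = 0.2) and Pdia3 (0.34, adjusted p = 0.0948) did not pass, which left no call in the XBP1 and ATF6 arms; nor did Eif2ak3 (0.45, adjusted p = 0.117), Ddit3 (0.46, adjusted p = 0.131) and Phgdh (0.39, adjusted p = 0.0844). On the 6 knockout and control libraries alone, Eif2ak3 (0.46, adjusted p = 0.0744), Psat1 (0.40, adjusted p = 0.0569), Ddit3 (0.44, adjusted p = 0.0799) and Phgdh (0.37, adjusted p = 0.16) did not pass, and with DESeq2 Ddit3 did not (0.44, adjusted p = 0.0787).

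With WM-3835 most ER chaperone genes fell and Xbp1 rose. Of the 22 members of the XBP1 and ATF6 arms 10 fell, 1 rose (Xbp1) and 11 did not pass, and 50% were called against 18.7% of all genes. The log2 change was negative for 18, where it was for 9545 of 18670 genes, with a median of -0.34 against -0.01 over all genes. All 9 chaperones and co-chaperones had log2 changes below 0, of which 7 passed, with a median of -0.47. All 3 WM-3835 libraries lay under all 3 DMSO libraries for 10 members and above them for 2, where 23% and 23.1% of all genes did.

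Sdf2l1, a partner of BiP co-chaperones that is strongly induced by ER stress, had the largest fall to pass. It stood at 52.6, 31.6 and 58.9 CPM with WM-3835, against 99.8, 85.4 and 128 CPM with DMSO, less than the lowest DMSO library in all 3, a log2 change of -1.13 (SE 0.25, adjusted p = 0.00336). Creld2, an ER protein induced by ER stress, stood at 139, 111 and 149 CPM with WM-3835, against 249, 224 and 303 CPM with DMSO, far apart, a log2 change of -0.96 (SE 0.18, adjusted p = 0.00101). Hsp90b1, which encodes the ER chaperone GRP94, stood at 1189, 986 and 1336 CPM with WM-3835, against 1770.4, 1665 and 2154 CPM with DMSO, without overlap, a log2 change of -0.67 (SE 0.12, adjusted p = 0.000402). Manf, an ER protein that is also secreted, stood at 143, 112 and 161 CPM with WM-3835, against 194, 196 and 229 CPM with DMSO, without overlap, a log2 change of -0.58 (SE 0.11, adjusted p = 0.00119). These 4 falls passed in every other fit and without each library. Exons of Hsp90b1 overlap a gene on the other strand by 415 bases. On the other strand, those of Manf overlap an antisense gene by 166 bases and the protein-coding gene Dcaf1 by 146 bases. Reads of the 2 strands cannot be told apart.

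Hspa5 stood at 1788, 1460.3 and 2059.9 CPM with WM-3835, against 2387, 2148 and 2835 CPM with DMSO, without overlap, a log2 change of -0.47 (SE 0.14, adjusted p = 0.0221). Dnajc3 stood at 188, 147 and 173 CPM with WM-3835, against 212, 195 and 263 CPM with DMSO, also lower in all 3, a log2 change of -0.40 (SE 0.11, adjusted p = 0.0136). Dnajc3 was called in opposite directions in the 2 comparisons. The disulfide isomerase gene Pdia4 stood at 327, 266 and 358 CPM with WM-3835, against 449.9, 407 and 549 CPM with DMSO, without overlap, a log2 change of -0.56 (SE 0.14, adjusted p = 0.00922). Pdia6, another isomerase, stood at 271, 225 and 280.1 CPM with WM-3835, against 327, 300.1 and 385 CPM with DMSO, without overlap, a log2 change of -0.38 (SE 0.11, adjusted p = 0.0188). Hyou1, the nucleotide exchange factor of BiP, changed by -0.47 (SE 0.16, adjusted p = 0.0431) on the log2 scale with overlapping libraries, and Sel1l, the adaptor of the ER ubiquitin ligase, by -0.34 (SE 0.11, adjusted p = 0.0393). Several of these falls lost their call when 1 library was left out. Without DMSO 3, the highest of its group for 21 of 22 members, 4 members fell in place of 10, and without WM-3835 2, the lowest of its group for all 22, 4 fell as well. Hspa5 did not pass without DMSO 3 (-0.36, adjusted p = 0.121), WM-3835 1 (-0.48, adjusted p = 0.0601) or WM-3835 2 (-0.35, adjusted p = 0.113). Without DMSO 3 and without WM-3835 2, in turn, Dnajc3 (-0.27, adjusted p = 0.108, and -0.31, adjusted p = 0.0823), Pdia4 (-0.44, adjusted p = 0.0632, and -0.45, adjusted p = 0.0541) and Pdia6 (-0.28, adjusted p = 0.123, and -0.29, adjusted p = 0.105) did not pass. Sel1l did not pass without DMSO 1 (-0.36, adjusted p = 0.0712), DMSO 3 (-0.25, adjusted p = 0.202), WM-3835 1 (-0.38, adjusted p = 0.0646), WM-3835 2 (-0.26, adjusted p = 0.173) or WM-3835 3 (-0.39, adjusted p = 0.0541). Hyou1 did not pass with DESeq2 (-0.48, adjusted p = 0.0846), under the Xist covariate (-0.47, adjusted p = 0.0587) or without knockout 1 (-0.47, adjusted p = 0.0553), knockout 2 (-0.47, adjusted p = 0.0542), knockout 3 (-0.47, adjusted p = 0.0546), DMSO 1 (-0.47, adjusted p = 0.0852), DMSO 3 (-0.32, adjusted p = 0.235), WM-3835 1 (-0.52, adjusted p = 0.0706) or WM-3835 2 (-0.34, adjusted p = 0.194).

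Of the sensor and factor genes only Xbp1 passed with WM-3835, and it rose. Xbp1 stood at 491, 378 and 419 CPM with WM-3835, against 350.1, 315 and 329 CPM with DMSO, without overlap, a log2 change of 0.37 (SE 0.09, adjusted p = 0.00604). It did not pass without WM-3835 1 (0.27, adjusted p = 0.0576). Ern1 stood at 52.2, 45.3 and 51.8 CPM with WM-3835, against 42.2, 36.6 and 43.0 CPM with DMSO, higher in all 3, but the log2 change of 0.29 (SE 0.12, adjusted p = 0.118) did not pass; on the 6 wild-type libraries alone it did (0.29, adjusted p = 0.0199), and with quality weights (0.27, adjusted p = 0.013). Atf6 stood at 135, 117 and 138 CPM with WM-3835, against 119, 92.9 and 129 CPM with DMSO, overlapping, with a log2 change of 0.20 (SE 0.13, adjusted p = 0.352). Members that did not pass were the co-chaperone genes Dnajb9 (-0.00) and Dnajb11 (-0.25), the lectin chaperone genes Calr (-0.32) and Canx (-0.24), Pdia3 (-0.26), and the degradation genes Edem1 (0.04), Syvn1 (-0.31), Herpud1 (-0.34) and Derl3 (-0.72).

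**Figure D3:**
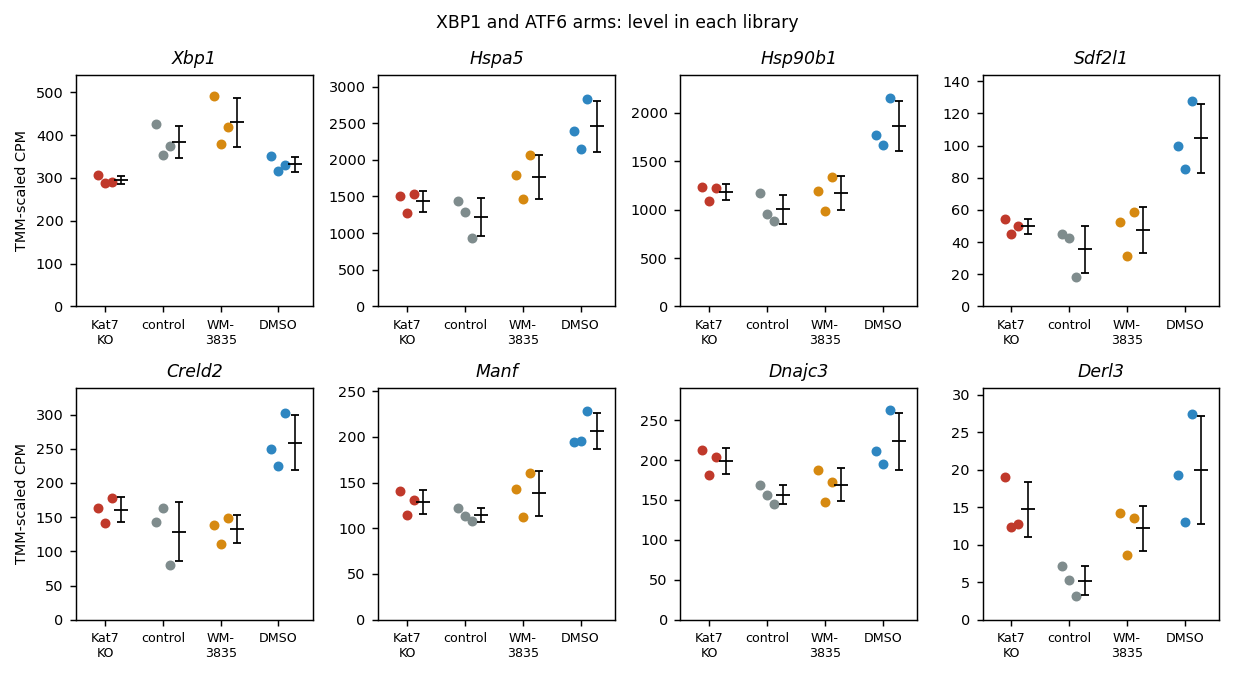
Levels of 8 members of the XBP1 and ATF6 arms in each library, in TMM-scaled CPM; points are libraries and bars the mean ± SD of the 3 libraries of a group. Hspa5, Hsp90b1, Sdf2l1, Creld2, Manf and Dnajc3 are lower with WM-3835 than with DMSO in every library while Xbp1 is higher, and in the knockout Derl3 and Dnajc3 are higher and Xbp1 lower than in every control.

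The effects of the knockout and of the inhibitor differed for most of the XBP1 and ATF6 arms. Of 22 members 14 differed by edgeR, 13 of them higher in the knockout effect, where 4.41% of all genes differed upward, and the median difference was 0.60. Signs of both effects were set side by side: 18 of 22 members were positive in the knockout and negative with WM-3835, against 14 of 26 in the ATF4 arm. The share of all genes with this pair of signs was not counted. Over all 18670 genes, 9078 were positive in the knockout and 9545 negative with WM-3835. The 22 signs are not independent, since WM-3835 2 was the lowest of its group for all 22 members and DMSO 3 the highest for 21. The largest differences were those of Derl3 (2.21, SE 0.41, adjusted p = 0.00165), Sdf2l1 (1.63, SE 0.36, adjusted p = 0.00566) and Creld2 (1.28, SE 0.26, adjusted p = 0.00306). Hsp90b1 (0.91, SE 0.16, adjusted p = 0.00116), Pdia4 (0.86, SE 0.20, adjusted p = 0.00968), Manf (0.75, SE 0.16, adjusted p = 0.00458) and Dnajc3 (0.74, SE 0.15, adjusted p = 0.00345) also differed, as did Hspa5 (0.71, SE 0.20, adjusted p = 0.0265), Pdia3 (0.60, SE 0.14, adjusted p = 0.0077) and Dnajb9 (0.53, SE 0.16, adjusted p = 0.0464). Xbp1 differed the other way, at -0.75 (SE 0.13, adjusted p = 0.000684). Ern1 (-0.06, SE 0.18, adjusted p = 0.899) and Atf6 (-0.07, SE 0.18, adjusted p = 0.879) did not pass. Without DMSO 3 or WM-3835 2 the 14 differences were 9. With Xist as a covariate they were 3, where 1.51% of all genes differed upward and 2.21% downward, with a median difference of 0.62.

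**Figure D4:**
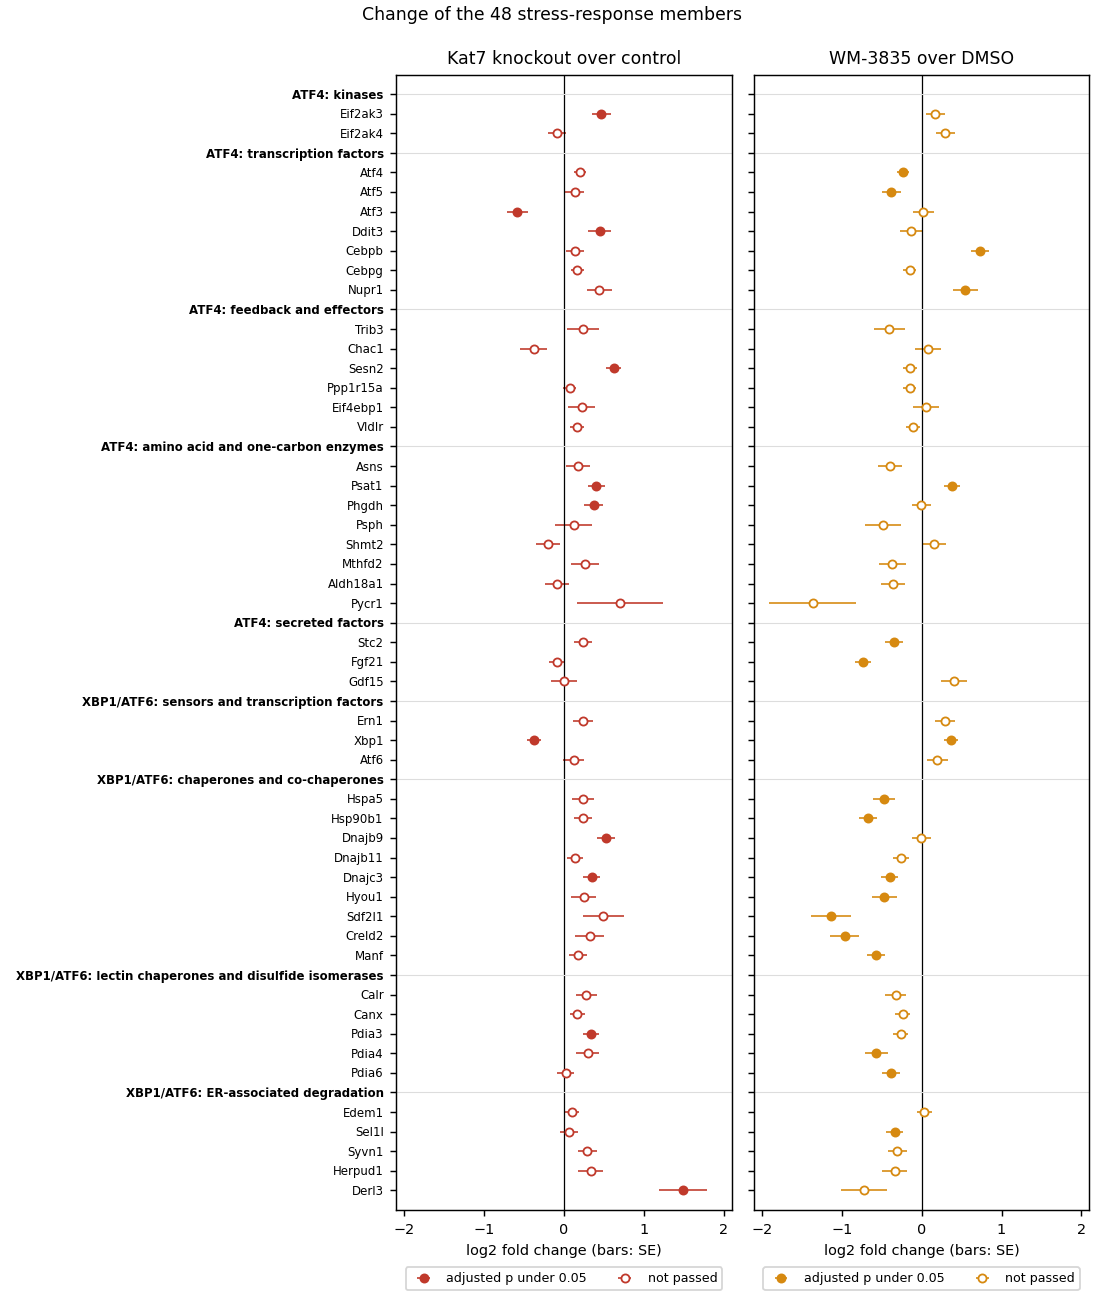
Log2 fold change of all 48 members in the knockout over control (left) and with WM-3835 over DMSO (right), by arm and role; bars are 1 SE and filled points passed at an adjusted p under 0.05. Most XBP1 and ATF6 members lie right of 0 in the knockout, where 4 rose, and left of 0 with WM-3835, where 10 fell, and Xbp1 lies on the other side in both.

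Both arms stood at different levels in the DMSO and control libraries. In DMSO against control, 22 of 26 ATF4-arm members and 18 of 22 members of the other arms were higher and none was lower, where 11.4% of all genes were higher and 13.3% lower, with median log2 differences of 0.76 and 0.72. All 3 DMSO libraries lay above all 3 controls for 22 and 17 members and below them for 0 and 1, where 19.6% and 19.4% of all genes did. Fgf21 stood at 403, 454 and 452 CPM with DMSO and 118, 117 and 99.9 CPM in control, a log2 difference of 1.97 (SE 0.10, adjusted p = 3.13e-10). Trib3 differed by 1.76 (SE 0.20, adjusted p = 3.34e-06), Derl3 by 1.93 (SE 0.30, adjusted p = 9.39e-05), Sdf2l1 by 1.56 (SE 0.25, adjusted p = 0.00016) and Hspa5 by 1.01 (SE 0.14, adjusted p = 2.95e-05). Xbp1 (-0.21, SE 0.09, adjusted p = 0.0975), Atf3 (0.02, SE 0.13, adjusted p = 0.937) and Cebpb (-0.11, SE 0.11, adjusted p = 0.526) were among the 8 members that did not pass. These groups differ in tamoxifen and DMSO, in the genotype label and in Xist, which cannot be told apart. With Xist as a covariate 7 and 3 members passed, where 1.28% of all genes were higher and 2.98% lower, and the median log2 differences were 0.66 and 0.76. Xist was low in every control and high in every DMSO library, so this fit cannot separate Xist from the groups. Hsp90b1 averaged 1181 ± 80.6 CPM in the knockout, 1171 ± 176 CPM with WM-3835, 1002 ± 149 CPM in control and 1863 ± 257 CPM with DMSO (mean ± SD, n = 3 each). Creld2 averaged 161 ± 18.3 CPM, 133 ± 20.1 CPM, 129 ± 43.5 CPM and 259 ± 40.2 CPM in the same groups.

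**Figure D5:**
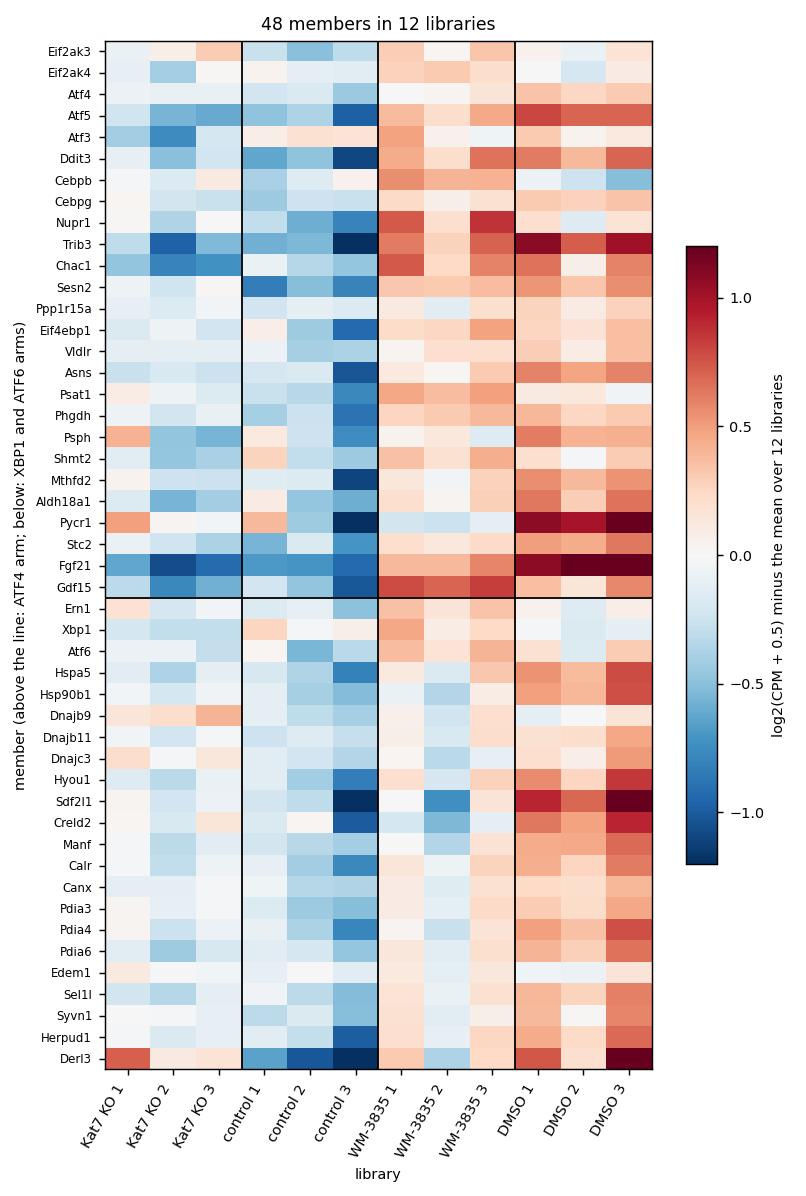
Level of the 48 members (rows) in the 12 libraries (columns), as log2(CPM + 0.5) minus the mean of the member over all libraries, red above and blue below it, with colours ending at 1.2 on either side. Among the 22 XBP1 and ATF6 members, WM-3835 2 is the lowest of its group for all 22, control 3 the lowest of its group for 20, and DMSO 3 the highest of its group for 21.

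Libraries of the same group differed in the level of whole arms. The summed level of the 22 XBP1 and ATF6 members was 7197, 6327 and 7134 CPM in the knockout libraries and 6896, 5948 and 4988 CPM in the controls. With WM-3835 it was 8023, 6604 and 8639 CPM, and with DMSO 9995, 9105 and 11712 CPM. The knockout and control sums overlapped, and the WM-3835 sums all lay under the DMSO sums. For the 26 ATF4-arm members the sums were 3864, 3299 and 3561 CPM in the knockout and 3445, 3492 and 2835 CPM in control, and 5456, 4875 and 5590 CPM with WM-3835 and 6049, 5490 and 5922 CPM with DMSO. Control 3 was the lowest control for 19 of 26 and 20 of 22 members, and WM-3835 2 the lowest of its group for 19 of 26 and 22 of 22. Within its arm and group, the most variable member was Pycr1 among the controls of the ATF4 arm, with a coefficient of variation of 91.7%, and Psph in the knockout, with 40.9%. In the XBP1 and ATF6 arms it was Derl3 in the knockout (25.4%) and with DMSO (36.1%), and Sdf2l1 with WM-3835 (30.0%) and in control (41.8%).

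Members with and without a matched motif were set side by side as a description. Of the 9 members with an ER stress element, 2 rose in the knockout and 5 fell with WM-3835, with median log2 changes of 0.28 and -0.40. Of the 10 matched members of these arms without it, 2 rose and 1 fell in the knockout and 1 rose and 3 fell with WM-3835, with medians of 0.27 and -0.26. In the ATF4 arm the 8 members with TGATGNAA held 1 call in the knockout, the fall of Atf3, and 2 with WM-3835, the rise of Nupr1 and the fall of Fgf21. Their median log2 changes were 0.17 and -0.25. Of the 17 matched members of this arm without it, 5 rose in the knockout, and 2 rose and 3 fell with WM-3835, with medians of 0.17 and -0.15. Of all genes 6.12% rose and 8.06% fell in the knockout, and 9.34% rose and 9.35% fell with WM-3835.

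Other genes of the same pathways were counted against the same shares. Of 45 other ATF4-arm genes 6 rose and 3 fell in the knockout (median log2 change 0.10), or 20% called against 14.2% of all genes. With WM-3835 5 rose and 6 fell (median -0.09), or 24.4% called against 18.7%. Ddit4, which encodes the mTORC1 inhibitor REDD1, stood at 429, 373 and 369 CPM in the knockout libraries, against 649, 639 and 622 CPM in the control libraries, a log2 change of -0.71 (SE 0.08, adjusted p = 1.03e-05). The inhibitor moved it the other way, by 0.36 (SE 0.08, adjusted p = 0.00227). Mthfd1l, a mitochondrial folate enzyme, fell in the knockout, with a change of -0.89 (SE 0.12, adjusted p = 0.000114) on the log2 scale. Klhl24 rose in both, by 0.50 (SE 0.08, adjusted p = 0.000566) in the knockout and 0.81 (SE 0.08, adjusted p = 1.88e-06) with WM-3835. The neutral amino acid transporter gene Slc1a4 fell with WM-3835, at -0.57 (SE 0.07, adjusted p = 1.96e-05), and Eprs, a tRNA synthetase gene, rose in the knockout by 0.42 (SE 0.09, adjusted p = 0.00497). Eif2ak2, the gene of the eIF2α kinase PKR, rose with WM-3835 by 0.47 (SE 0.09, adjusted p = 0.000832).

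Of 59 other genes of the XBP1 and ATF6 arms 5 rose and 2 fell in the knockout (median log2 change 0.10), or 11.9% called against 14.2% of all genes. With WM-3835 1 rose and 5 fell (median -0.05), or 10.2% called against 18.7%, so in both comparisons the share was under that of all genes. Ero1a, the oxidase that reoxidises protein disulfide isomerases and is also induced by low oxygen, stood at 127, 149.7 and 159 CPM in the knockout libraries, against 624, 376 and 364 CPM in the control libraries, a log2 change of -1.65 (SE 0.15, adjusted p = 1.78e-06). Ern2, the gene of the IRE1 relative of mucosal epithelium, was rare and fell in the knockout (adjusted p = 0.00965), at 0, 0.0736 and 0 CPM in the knockout libraries, against 2.08, 1.44 and 0.417 CPM in the control libraries. With knockout 1 and knockout 3 at 0 counts no fold is given for Ern2, and it did not pass on the 6 libraries alone (adjusted p = 0.0640) or with quality weights (adjusted p = 0.0551). Its fall did not pass either with knockout 3 alone (adjusted p = 0.0675). The Ero1a relative Ero1b fell with WM-3835, to 94.0, 97.9 and 99.7 CPM, against 139.6, 154 and 171 CPM with DMSO, a log2 change of -0.67 (SE 0.08, adjusted p = 8e-06). Among the CREB3 family of membrane-bound factors, Creb3l1 and Creb3l2 fell with WM-3835, at -1.19 (SE 0.20, adjusted p = 0.000272) and -0.41 (SE 0.10, adjusted p = 0.00735), and Creb3 rose in the knockout by 0.52 (SE 0.11, adjusted p = 0.00409). Sil1, a nucleotide exchange factor of BiP, fell with WM-3835, at -0.35 (SE 0.09, adjusted p = 0.0117), and Sec62 of the translocation channel rose in the knockout by 0.28 (SE 0.07, adjusted p = 0.00969). With Xist as a covariate, Klhl24, Eprs, Ern2, Creb3 and Sec62 did not pass in the knockout, and Ddit4, Mthfd1l and Ero1a did.

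Genes of cell handling and of DNA damage were followed beside the arms, since Atf3 belongs to the first set by its known behaviour. Of 15 immediate early and dissociation genes 10 fell and 2 rose in the knockout, where 8.06% and 6.12% of all genes did, with a summed level of 13812 to 15460 CPM in the knockout libraries and 16041 to 19187 CPM in the controls. With WM-3835 2 fell and 1 rose, where 9.35% and 9.34% of all genes did, with sums of 10709 to 13461 CPM, against 10647 to 12538 CPM with DMSO. Fosb fell in both, at -1.11 (SE 0.16, adjusted p = 0.000228) in the knockout and -0.95 (SE 0.16, adjusted p = 0.000437) with WM-3835. The knockout change of Fosb under the Xist covariate was -0.86 (adjusted p = 0.0855) and with knockout 3 as the lone knockout library -0.85 (adjusted p = 0.0806), neither of which passed. Dusp1 changed by -0.91 (SE 0.11, adjusted p = 3.61e-05) in the knockout and 0.73 (SE 0.11, adjusted p = 0.000118) with WM-3835. The part of this set in the fall of Atf3 was not tested. Of 12 p53 target genes 3 rose and 3 fell in the knockout, and 3 rose and 1 fell with WM-3835, beside the same shares of all genes; Phlda3 changed by -0.84 (SE 0.10, adjusted p = 3.6e-05) in the knockout and Eda2r by 1.07 (SE 0.22, adjusted p = 0.00215) with WM-3835.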

How the data were processed

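Per the file headers, the deposited files pair an Entrez ID, a symbol and a gene length with raw counts. The authors used featureCounts and mm10, per the submitters' processing notes. Which aligner, annotation and strand setting were used is not given in the sources used here; the TruSeq RNA v2 kit of the labels, with 75-base paired reads, keeps no strand. Exons of 15 members overlap another gene, 14 of them one on the opposite strand, and the handling of shared reads is not stated. The 1312 of 27179 entries without a symbol held 0.657% to 0.743% of counts and were left out.

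Counts were fitted in edgeR 4.0.16 (R 4.3.3): TMM scaling, filterByExpr (which kept 18670 genes), then a quasi-likelihood fit of 4 group means over 12 libraries. Tests were two-sided, with Benjamini-Hochberg adjustment over all genes and a threshold of 0.05. The SE was the log2 change divided by the root of the F statistic. The fit was tested first on simulated data with the same spread in every group. That test cannot show how the fit behaves under the unequal spreads of these groups. Replicates differed by 9.12 to 55.3 times counting noise, so p-values rest on the spread between cultures and not on depth. RPKM divides CPM by the deposited gene length. Promoters are from RefSeq (GRCm38.p6).

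The members, the lists of other genes and markers and the tests were chosen with earlier results of these data known. Atf4, Ddit3, Atf3, Eif2ak3, Eif2ak4, Ern1, Xbp1, Atf6 and Hspa5, and up to 15 called members per comparison by smallest adjusted p, are given for every library; other lists name up to 4 genes per comparison. The alternatives were scaling by RLE or upper quartile, no filter, DESeq2 1.42.0, limma 3.58.1 voom with quality weights per group, the 6 libraries of a comparison alone, Xist as a covariate, a replicate block, each library left out, and knockout 3 as the only knockout library.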

Additional observations from a re-analysis of the deposited data

Results flagged for a closer look

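For 20 of the 48 members the change in the knockout differed from the change with WM-3835 by edgeR's test of that difference (adjusted p under 0.05); the values are log2 differences, knockout effect minus inhibitor effect. In the ATF4 arm these were Atf4 (0.43), Sesn2 (0.76), Stc2 (0.58) and Fgf21 (0.65), and, lower in the knockout effect, Atf3 (-0.61) and Cebpb (-0.60). In the XBP1 and ATF6 arms the chaperone and co-chaperone genes were Hspa5 (0.71), Hsp90b1 (0.91), Dnajb9 (0.53), Dnajc3 (0.74), Hyou1 (0.72), Sdf2l1 (1.63), Creld2 (1.28) and Manf (0.75). The lectin chaperone and isomerase genes Calr (0.60), Pdia3 (0.60) and Pdia4 (0.86) and the degradation genes Syvn1 (0.60) and Derl3 (2.21) were higher in the knockout effect too, and Xbp1 (-0.75) was lower. The comparisons differ in genotype, agent, Xist and the level of the cultures they are set against, which cannot be told apart.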

How the results depend on the processing

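Over 591 pairs of 1 of the 29 member calls and an alternative fit, 497 kept the call, 94 lost it and 0 reversed. Some of these fits only leave out a library of the other comparison. In every fit 7 calls passed: 1 of the 11 in the knockout (Sesn2) and 6 of the 18 with WM-3835 (Cebpb, Fgf21, Hsp90b1, Sdf2l1, Creld2 and Manf). Counts are given as ATF4 arm first, other arms second. In the knockout the 5 and 4 rises were 2 and 0 with quality weights, 1 and 0 under the Xist covariate, and 2 and 1 with knockout 3 alone; on the 6 libraries alone the ATF4 arm had 1. Leaving out 1 library gave 2 to 8 and 2 to 9 rises, most without control 1. The 1 and 1 falls were 0 and 0 under the Xist covariate and with knockout 3 alone, and the other arms had 0 with quality weights. With WM-3835 the 3 and 1 rises were 5 and 2 with quality weights and 5 and 2 on the 6 libraries, and leaving out 1 library gave 1 to 4 and 0 to 1. The 4 and 10 falls were 12 and 17 with quality weights and 7 and 17 without the filter; the ATF4 arm had 10 on the 6 libraries, and leaving out 1 library gave 1 to 8 and 4 to 15. Members that differed between the effects, 6 and 14, were 1 and 3 with Xist as a covariate and 2 and 6 with knockout 3 alone, the ATF4 arm had 12 without the filter, and leaving out 1 library gave 3 to 11 and 9 to 17. DMSO against control, 22 and 18, fell to 7 and 3 with Xist as a covariate. Uncalled changes whose sign turned were Eif2ak4 in the knockout (0.084 under the Xist covariate, 0.092 with knockout 3 alone, -0.17 to 0.035 with 1 library left out), Atf6 in the knockout (-0.095 under the Xist covariate, -0.013 with knockout 3 alone) and Atf3 with WM-3835 (-0.027 with upper-quartile scaling, -0.0037 without the filter, -0.16 to 0.124 with 1 library left out). The causes were not tested.

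Whether replicate numbers pair the libraries was not settled: deviations of same-numbered libraries correlated at 0.00673, 0.00218 and 0.00918 (knockout and control) and 0.0421, 0.058 and 0.00317 (WM-3835 and DMSO), and every knockout library but not every WM-3835 library correlated best with its own number. Deviations from a mean of 3 libraries constrain each other, so these values cannot exclude a pairing. With a replicate block the ATF4 arm had 2 falls in the knockout, 7 falls with WM-3835 and 11 differences between the effects. The other arms then had 6 rises in the knockout, against 4 without the block, and 14 falls with WM-3835, against 10.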
